A study of Arabidopsis thaliana with 36 samples.

Results

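Sink and source leaves of an Arabidopsis thaliana triple bZIP mutant, from a study of the group S1 bZIP transcription factors, were compared across all genes. The comparison rests on 6 of the 36 RNA-seq libraries of the series: 3 biological replicates of sink leaves and 3 of source leaves from the mutant that the labels call the triple mutant. The other tissues of the series are flowers and rosette buds, and the other genotypes are the Col-0 wild type and a quintuple bZIP mutant. The 6 wild-type leaf libraries deposited in the same count tables, 3 sink and 3 source, serve as a reference only. All plants of the 4 groups were grown on soil without treatment, with 16 h of light at 100 µmol per square metre and second, 8 h of darkness and 60% humidity, up to the time when the main inflorescence started to flower. The labels do not say which 3 genes are mutated, by what kind of allele, in what background the mutant arose, how many plants made up a replicate, or by what size or position a leaf was taken as sink or source.

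A young leaf is a sink: it imports sucrose and amino acids from the phloem while its cells divide, expand and differentiate. A leaf that has finished this transition is a source, which makes sucrose from its own photosynthesis and loads it into the phloem, and which later gives up its nitrogen as it ages. The S1 bZIP factors, as homodimers or as heterodimers with group C bZIP proteins, are known as regulators of amino acid and sugar metabolism genes under low energy, and translation of their mRNAs is repressed by sucrose.

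Each value is a read count per gene scaled to CPM (counts per 1000000 counts of the library) with edgeR's TMM factors among the 6 libraries of one genotype, so levels are set side by side within a genotype and not between genotypes. A gene is called higher or lower where edgeR's quasi-likelihood test gave a Benjamini-Hochberg adjusted p under 0.05 over all tested genes. Fold changes are log2 values of sink over source leaves, positive where the sink leaves were higher, from 3 libraries against 3. The value after ± is an approximate standard error. It is the log2 fold change without its sign, divided by the square root of that test's F statistic. Total counts ran from 18313059 to 22464922 in the mutant libraries, and the share of counts on chloroplast and mitochondrial genes was 1.05% to 1.87% in mutant sink and 1.01% to 2.26% in mutant source leaves. In the wild type that share was 1.86% to 2.23% in sink and 0.194% to 0.5897% in source leaves. Mutant source leaf 1 stood apart from the other source libraries: its log CPM values correlated with theirs across genes at r = 0.978 and 0.976, against 0.988 between source leaves 2 and 3. It also lay nearest the sink leaves more often than the others. In the genes called higher in sink leaves it was the highest source library in 49.8%, against 25.6% and 24.6% for source leaves 2 and 3. In those called lower it was the lowest in 40.0%, against 32.1% and 27.9%. Sink leaf 1 lay nearest the source leaves in 38.9% of the genes called higher and 44.1% of those called lower. Its r with sink leaves 2 and 3 was 0.980 and 0.982, against 0.985 between those 2. List counts without source leaf 1, and without any library that moved a count by over 1.5 times, are given beside most lists.

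The S1 genes themselves were measured in both leaf types. bZIP53 (AT3G62420) was the one of the 5 that passed, at 43.2, 60.3 and 64.1 CPM in the sink leaves and 39.4, 28.9 and 30.2 CPM in the source leaves (log2 fold change 0.77 ± 0.18, adjusted p = 0.0112). Its sink and source values did not overlap, and the wild type gave a log2 fold change of 0.62 (adjusted p = 0.0471). bZIP2 (AT2G18160) stood at 75.6, 78.02 and 70.7 CPM in the sink leaves and 54.1, 58.1 and 65.4 CPM in the source leaves (log2 fold change 0.34 ± 0.12, adjusted p = 0.0641). bZIP11 (AT4G34590) stood at 4.82, 10.96 and 7.89 CPM in the sink leaves and 6.64, 8.65 and 8.09 CPM in the source leaves and bZIP1 (AT5G49450) at 3.92, 3.28 and 3.896 CPM in the sink leaves and 2.31, 3.42 and 5.199 CPM in the source leaves. For both, the sink and source ranges overlapped. bZIP44 (AT1G75390) was near 1 CPM throughout, at 1.62, 1.61 and 1.01 CPM in the sink leaves and 1.36, 0.7902 and 1.09 CPM in the source leaves. No S1 gene was without counts in the mutant, so counts over whole genes do not show which are mutated. None of the 4 group C genes passed, with log2 fold changes of 0.65 for bZIP9, -0.08 for bZIP10, -0.25 for bZIP25 and 0.49 for bZIP63. The count called higher was 1 without source leaf 1 and 1 without sink leaf 3.

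Across the genome, 5126 of 18876 tested genes, 27.2%, differed between sink and source leaves of the mutant. Of these, 2790 were higher in sink leaves, 14.8% of the tested genes, and 2336 were lower, 12.4%. At least 2-fold differences were called for 2205 genes, of which 1275 (6.75%) were higher and 930 (4.93%) lower in sink leaves, 11.7% together. In 43.8% of the tested genes the 3 libraries of one leaf type all lay beyond the 3 of the other, with the sink leaves above in 22.5% and below in 21.3%. The median log2 fold change over all tested genes was -0.01. Without source leaf 1 the number of called genes was 5312, and the lowest number with any one library left out was 3421, without sink leaf 3, where 1482 genes were lower in sink leaves. With chloroplast and mitochondrial genes left out 5101 were called. In the wild-type leaves of the same tables the test called 3243 of 18926 genes, 17.1%, with 2064 (10.9%) higher and 1179 (6.23%) lower in sink leaves, and 1678 without wild-type source leaf 1 or 1615 without wild-type source leaf 3. With the replicate numbers as a block in the wild-type model 4292 genes were called, of which 1813 were lower in sink leaves. These are tissue samples, in which fewer cells of a type and less RNA per cell cannot be told apart.

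Lists of genes with shared roles showed where these calls fell. Several growth and differentiation lists lay on the sink side: all 12 of the xylem genes tested, 7 of 8 stomatal lineage genes and 13 of 18 mitotic genes were higher in sink leaves, beside 14.8% of all tested genes. Among the other growth lists, DNA replication gave 3 of 16 and endocycle entry 1 of 8. Chlorophyll synthesis, with 15 of 22 genes, and the photosystem list, with 16 of 34, lay on the same side. The photosystem count was 4 to 33 with any one library left out. Rubisco and Calvin cycle genes gave 3 of 19, and photorespiration genes 1 of 12 higher and 1 lower. On the source side were the lists for aliphatic glucosinolates, with 10 of 16 genes, senescence, with 9 of 18, salicylic acid and immunity, with 8 of 18, and amino acid carriers, with 6 of 12, beside 12.4% of all tested genes. The lists were put together with earlier results of these data known, so their direction is a description.

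**Figure D1:**
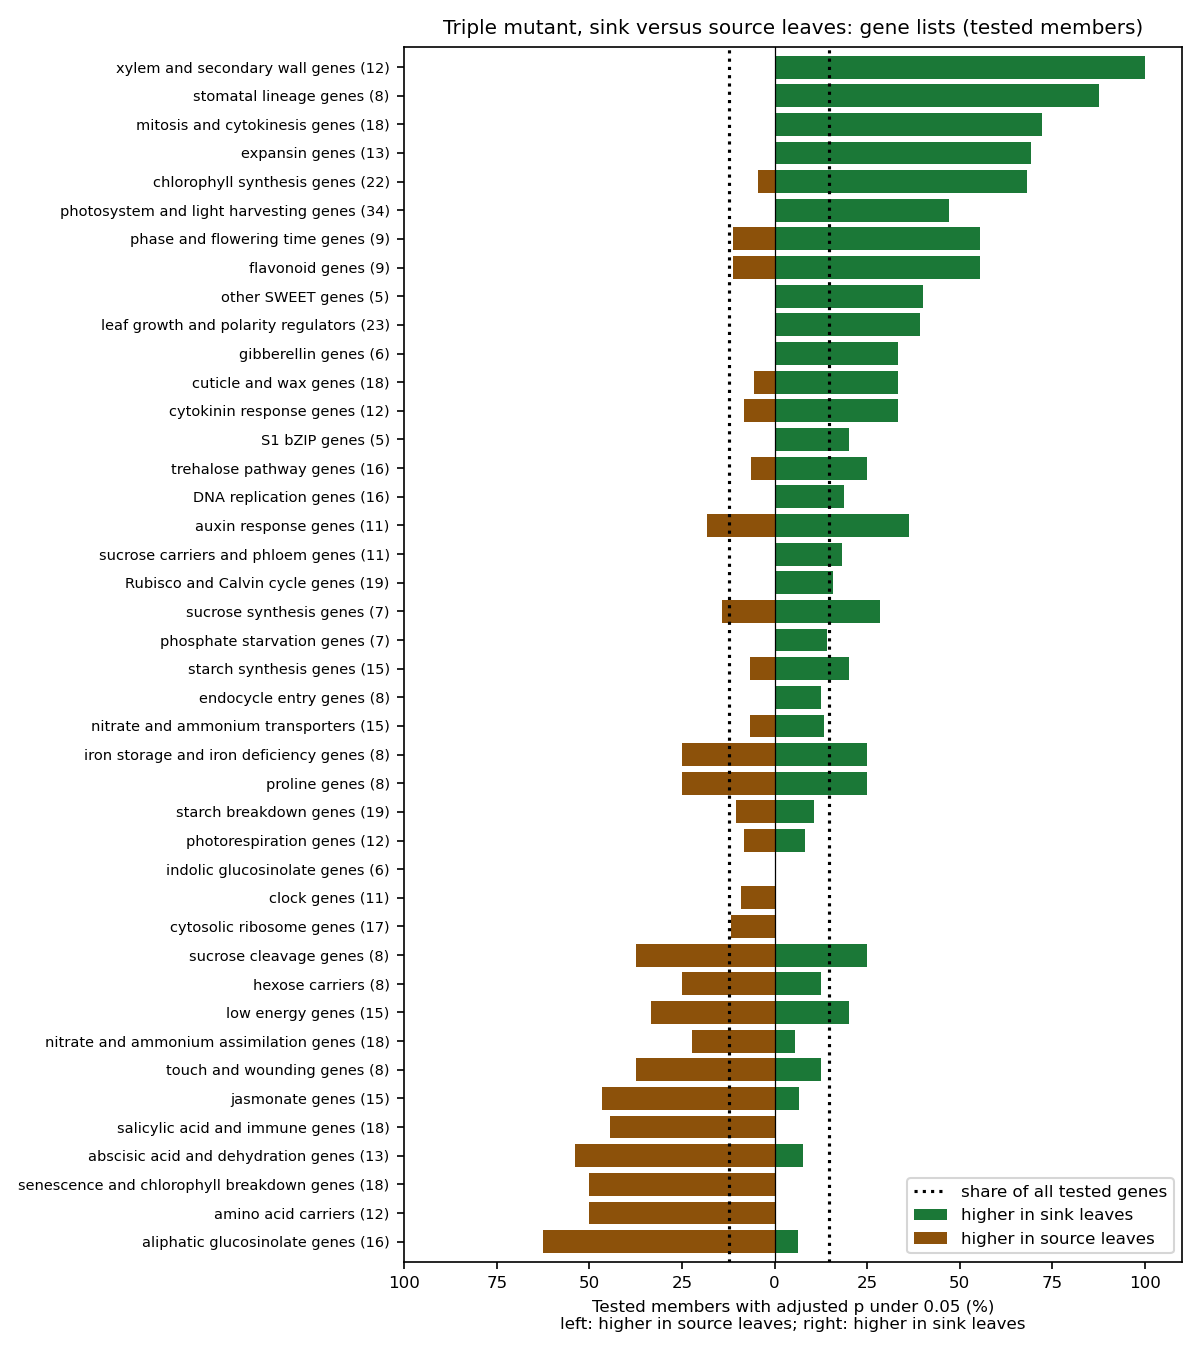
Percent of tested members of each gene list with adjusted p under 0.05 in the triple mutant, higher in sink leaves (green, right) or higher in source leaves (brown, left), with the number of tested members in parentheses. Only lists with at least 5 tested members are drawn, and the dotted lines mark the shares of all tested genes, 14.8% and 12.4%. The xylem list reaches 100% on the sink side and the aliphatic glucosinolate list reaches furthest on the source side.

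Promoters of genes from 3 of these groups are shown because each group has a described DNA element that can be looked for in front of its genes. The first is the core of the mitosis-specific activator element, AACGG, known to be bound by MYB factors in front of genes used in late G2 and M phase. The second is the tracheary element-regulating element, of 11 bases, described in front of xylem genes and called TERE here. The third is ACTCAT, which S1 bZIP proteins are known to bind in front of the proline dehydrogenase gene. The 250 bases before the annotated start of each nuclear protein-coding gene of the tables were searched on both strands of RefSeq's TAIR10.1. Capitals mark the matches, and each sequence is written on the strand of its gene. The 250 bases of the mitotic cyclin gene CYCB1;2 lie at chr5:1861704-1861953, minus strand, and its matches begin at positions -143, -69, -43 and -11 relative to the gene start. For the kinesin gene HIK (chr1:6324379-6324438, minus strand) and the Aurora kinase gene AUR1 (chr4:15842336-15842395, plus strand), 60 bases around the match are given. The same length is given for the xylem peptidase gene XCP1 (chr4:16810382-16810441, plus strand), the cellulose synthase gene CESA4 (chr5:17714330-17714389, plus strand) and FLA11 (chr5:753827-753886, minus strand), which encodes a fasciclin-like wall protein. The 250 bases of PRODH1, for proline dehydrogenase, lie at chr3:12451557-12451806, minus strand, with the match at -24.
CYCB1;2: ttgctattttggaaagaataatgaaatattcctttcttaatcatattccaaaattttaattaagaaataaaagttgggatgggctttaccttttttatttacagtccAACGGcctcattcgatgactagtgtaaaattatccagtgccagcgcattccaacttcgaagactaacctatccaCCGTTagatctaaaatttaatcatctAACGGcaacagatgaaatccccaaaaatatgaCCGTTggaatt
HIK: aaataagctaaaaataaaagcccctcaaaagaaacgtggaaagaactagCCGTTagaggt
AUR1: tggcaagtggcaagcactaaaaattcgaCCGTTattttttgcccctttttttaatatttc
XCP1: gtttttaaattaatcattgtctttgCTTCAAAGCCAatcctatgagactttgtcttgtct
CESA4: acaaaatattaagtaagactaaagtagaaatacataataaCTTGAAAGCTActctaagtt
FLA11: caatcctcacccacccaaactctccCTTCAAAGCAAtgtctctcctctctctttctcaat
PRODH1: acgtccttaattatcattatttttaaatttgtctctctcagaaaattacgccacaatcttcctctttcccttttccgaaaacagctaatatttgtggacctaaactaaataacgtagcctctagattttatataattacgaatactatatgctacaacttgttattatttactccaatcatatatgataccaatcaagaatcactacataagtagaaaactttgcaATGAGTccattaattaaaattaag

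Among all 26709 promoters of this length, 20.6% held AACGG, 0.378% held the TERE and 12.3% held ACTCAT. In the mitosis list 12 of 20 promoters held AACGG, and in the xylem list 3 of 12 held the TERE, those of XCP1, CESA4 and FLA11. ACTCAT stood in 2 of 8 promoters of the proline list and in 5 of 16 of the aliphatic glucosinolate list. Over all genes called in the mutant, AACGG was in 21.6% of those higher in sink leaves and 19.3% of those higher in source leaves. The TERE was in 0.55% and 0.353%, and ACTCAT in 13.3% and 12.3%, of the same sets. A match is a stretch of letters and not a shown binding site.

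Every xylem gene of the list was called in the same direction. All 12 members of the list passed the low-count filter and all 12 were higher in mutant sink leaves, with a median log2 fold change of 2.28. The count was 12 without source leaf 1 and 11 to 12 without any other single library. XCP1 (AT4G35350), a papain-like peptidase of dying vessel cells, stood at 21.4, 20.98 and 13.1 CPM in the sink leaves and 3.74, 2.68 and 1.798 CPM in the source leaves (log2 fold change 2.78 ± 0.28, adjusted p = 0.000267). Its partner XCP2 stood at 37.5, 44.7 and 26.6 CPM in the sink leaves and 11.03, 6.58 and 6.37 CPM in the source leaves (log2 fold change 2.2 ± 0.25, adjusted p = 0.000443). Every sink library lay well above every source library for both. The secondary wall cellulose synthases followed, CESA7 (AT5G17420) at 10.99, 10.3 and 9.26 CPM in the sink leaves and 4.21, 1.58 and 1.92 CPM in the source leaves (log2 fold change 2.03 ± 0.31, adjusted p = 0.00169), with CESA4 and CESA8 at log2 fold changes of 1.2 and 1.82. LAC17 and LAC4, laccases that polymerise lignin, were 5.78-fold and 3.55-fold higher. The wall protein gene FLA11 was 3.79-fold higher.

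The NAC and MYB factors that switch on vessel formation were low in counts but apart between the leaf types. VND6, a NAC master regulator of vessel cells, stood at 0.573, 1.22 and 1.06 CPM in the sink leaves and 0.178, 0.0878 and 0.0782 CPM in the source leaves (log2 fold change 3.06 ± 0.55, adjusted p = 0.00341). VND7, its relative, had 3 counts in the 3 source libraries together against 49 in the sink libraries, a ratio of 18.2 with an exact 95% interval from 5.86 to 91.1 that covers counting error only (adjusted p = 0.00485). MYB46 stood at 0.812, 1.06 and 1.06 CPM in the sink leaves and 0.237, 0.132 and 0.195 CPM in the source leaves, and MYB83, the other MYB of this switch, at 1.34, 0.668 and 0.557 CPM in the sink leaves and 0.237, 0.132 and 0 CPM in the source leaves. The call of MYB83 was lost without sink leaf 1 or source leaf 2. Wild-type leaves gave these counts: 11 of 12 tested members were higher and 0 lower in sink leaves, with a median of 1.67.

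Genes of the stomatal lineage, the series of epidermal divisions that ends in guard cells, were likewise higher in mutant sink leaves. Of 12 members 8 were tested and 7 were higher, with a median of 2.39, and the count was 7 without source leaf 1 and 6 to 7 without any other single library. SPCH (AT5G53210), the bHLH factor that starts the lineage, stood at 1.96, 1.56 and 1.52 CPM in the sink leaves and 0.0593, 0.176 and 0.0782 CPM in the source leaves (log2 fold change 3.9 ± 0.45, adjusted p = 0.000478). TMM (AT1G80080), a receptor-like protein that spaces stomata, stood at 7.74, 8.74 and 6.78 CPM in the sink leaves and 1.07, 0.527 and 0.938 CPM in the source leaves (log2 fold change 3.21 ± 0.27, adjusted p = 0.000102). The 3 sink libraries lay clearly above the source libraries for both. STOMAGEN, a peptide that promotes stomata, was 6.06-fold higher, SCRM2, a bHLH partner of SPCH, 2.64-fold and FAMA, which fixes guard cell fate, 1.59-fold. The spacing peptide gene EPF1 was 4.56-fold higher, a call lost without sink leaf 2, source leaf 2 or source leaf 3. ERL2 did not pass, at 0.54. MUTE, EPF2, BASL and POLAR were too low to test, each with 0 or 1 count in the 3 source libraries together. MUTE had 26 counts in sink leaves, EPF2 11, BASL 17 and POLAR 35. SDD1 (AT1G04110), a subtilase that limits stomatal density, was among the 20 largest rises, at 5.78, 9.35 and 6.07 CPM in the sink leaves and 0.474, 0 and 0 CPM in the source leaves (log2 fold change 5.74 ± 0.69, adjusted p = 0.000552).

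Mitosis and cytokinesis genes were higher in mutant sink leaves in 13 of 18 tested members, with a median of 1.43, and in 15 without source leaf 1, 8 without sink leaf 1 and 7 without source leaf 2. The D-type cyclin CYCD3;1, which drives division in young leaves, stood at 9.94, 11.9 and 8.804 CPM in the sink leaves and 2.96, 2.15 and 1.45 CPM in the source leaves (log2 fold change 2.25 ± 0.25, adjusted p = 0.000438). HIK (AT1G18370), the kinesin of the division plane whose promoter is printed here, stood at 3.63, 3.17 and 2.83 CPM in the sink leaves and 0.771, 0.746 and 0.274 CPM in the source leaves (log2 fold change 2.46 ± 0.37, adjusted p = 0.00142). CYCB1;2 stood at 3.34, 2.39 and 2.83 CPM in the sink leaves and 1.07, 0.834 and 1.17 CPM in the source leaves (log2 fold change 1.48 ± 0.27, adjusted p = 0.00405), and AUR1 at 1.62, 1.45 and 1.72 CPM in the sink leaves and 0.593, 0.439 and 0.704 CPM in the source leaves (log2 fold change 1.45 ± 0.32, adjusted p = 0.00946). In all 4 genes every sink library was above every source library, at levels of a few CPM for the genes other than CYCD3;1. CDC20.1, an activator of the anaphase complex, was 4.25-fold and CYCA1;1 3.65-fold higher. Those that did not pass were CDKB2;1 at 0.69, CDKB2;2 at 0.88, CYCB1;1 at 0.55, CYCD3;3 at 0.64 and KN at 1.09.

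The replication genes, needed in S phase of mitotic and endoreduplicating cells alike, gave few calls, though all 16 had a positive log2 fold change. Their summed level was 171 to 198 CPM in mutant sink and 123 to 160 CPM in mutant source leaves. Of 16 tested members 3 were higher and none lower in sink leaves, beside 14.8% of all tested genes, and the count was 1 without source leaf 1, 0 without sink leaf 2, 0 without sink leaf 3, 6 without source leaf 2 and 0 without source leaf 3. MCM7, a subunit of the replicative helicase, stood at 12.3, 16.7 and 15.8 CPM in the sink leaves and 7.35, 11.3 and 9.62 CPM in the source leaves (log2 fold change 0.66 ± 0.19, adjusted p = 0.0277), and TSO2 and CDC45 were the others. Among genes that set entry into the endocycle, SIM passed at a log2 fold change of 0.60, 1 of 8 tested, a count of 1 without source leaf 1, 0 without sink leaf 3, 0 without source leaf 2 and 0 without source leaf 3. The SIM call was lost without sink leaf 1, sink leaf 3, source leaf 2 or source leaf 3. The median was 0.49 for the replication and 0.49 for the endocycle genes.

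Regulators of leaf growth and polarity were higher in 9 of 23 tested members out of 30, and none was lower, beside 14.8% and 12.4% of all tested genes. The count was 8 without source leaf 1, 5 without sink leaf 2, 4 without sink leaf 3, 5 without source leaf 2 and 4 without source leaf 3. ANT (AT4G37750), an AP2 factor that keeps leaf cells dividing, stood at 6.11, 5.68 and 5.11 CPM in the sink leaves and 2.13, 1.36 and 1.37 CPM in the source leaves (log2 fold change 1.82 ± 0.24, adjusted p = 0.00082). FIL, a YABBY factor of the lower leaf side, stood at 13.5, 12.3 and 11.5 CPM in the sink leaves and 6.29, 4.74 and 3.401 CPM in the source leaves (log2 fold change 1.39 ± 0.21, adjusted p = 0.00171), and PHB, an HD-ZIP factor of the upper side, at 43.4, 38.3 and 34.5 CPM in the sink leaves and 21.2, 14.7 and 19.3 CPM in the source leaves (log2 fold change 1.07 ± 0.16, adjusted p = 0.0014003). For these 3 genes the leaf types did not overlap. GRF2 was 2.08-fold higher. The class II TCP gene TCP4, which promotes the end of growth, was 1.34-fold higher, a call lost without sink leaf 1, sink leaf 3, source leaf 2 or source leaf 3, and TCP2, TCP3, TCP10 and TCP24 did not pass, at 0.09, 0.33, -0.28 and -0.01.

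Expansins, which loosen walls during cell expansion, were higher in 9 of 13 tested members and lower in none, beside 14.8% and 12.4% of all tested genes. The count was 9 without source leaf 1 and 5 without source leaf 2. EXPA15 stood at 9.31, 11.8 and 9.26 CPM in the sink leaves and 2.91, 2.19 and 1.68 CPM in the source leaves (log2 fold change 2.18 ± 0.23, adjusted p = 0.000292) and EXPA6 at 233, 213 and 249 CPM in the sink leaves and 121, 89.7 and 81.7 CPM in the source leaves (log2 fold change 1.25 ± 0.17, adjusted p = 0.000867). EXLA2 was 7.22-fold, EXLB1 3.97-fold and EXPA10 2.56-fold higher. Each of these calls held with every library left out in turn. EXPA1, EXPA4, EXPA8 and EXPA11 did not pass, at -0.28, 0.41, 0.66 and -0.17.

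A growth gene linked to brassinosteroids and carbon supply was measured beside its wild-type reference. EXO (AT4G08950), known for promoting leaf cell expansion, stood at 50.8, 173 and 162 CPM in the sink leaves and 11.6, 6.85 and 8.09 CPM in the source leaves (log2 fold change 3.87 ± 0.43, adjusted p = 0.000416). The reference stood at 133, 188 and 157 CPM in the wild-type sink leaves and 57.1, 142 and 99.1 CPM in the wild-type source leaves, with a log2 fold change of 0.68 (adjusted p = 0.129). Mutant sink leaf 1 was the lowest sink library but above all mutant source leaves, while the wild-type leaf types overlapped. The difference between the contrasts, mutant minus wild type on the log2 scale as in all such values, was 3.15 (unadjusted p = 9.25e-05, adjusted p = 0.101), and its unadjusted p was at most 0.000393 with any one library left out. TCH4, a xyloglucan-modifying enzyme induced by touch and brassinosteroids, stood at 56.99, 178 and 179 CPM in the sink leaves and 30.5, 20.7 and 40.8 CPM in the source leaves (log2 fold change 2.17 ± 0.40, adjusted p = 0.00404), against a wild-type log2 fold change of 0.24 (adjusted p = 0.724), a difference of 1.88 (unadjusted p = 0.0143, adjusted p = 0.346).

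**Figure D2:**
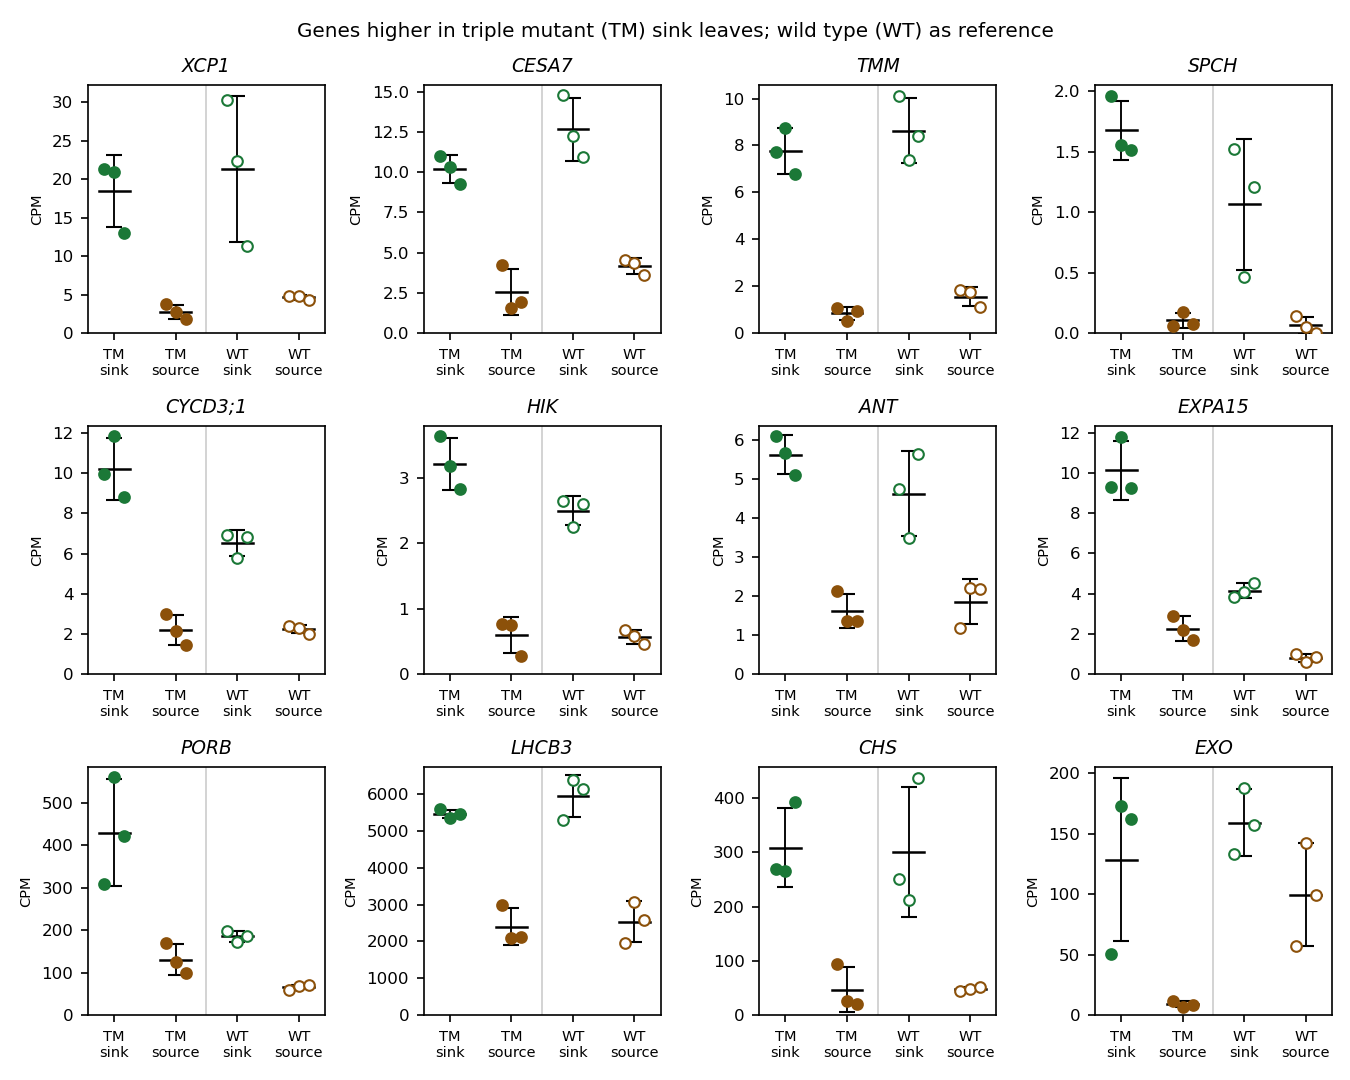
CPM (vertical axes, from 0, scaled within each genotype) in each leaf library for 12 genes named as higher in mutant sink leaves. Filled points are the triple mutant and open points the wild type, green for sink and brown for source leaves, and bars give the mean and SD of 3 libraries. XCP1 stood at 21.4, 20.98 and 13.1 CPM in mutant sink leaves and at 3.74, 2.68 and 1.798 CPM in mutant source leaves, and in each panel the 3 mutant sink points lie above the 3 mutant source points.

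The 20 largest rises, at log2 fold changes from 3.98 to 5.85, included genes of the leaf surface and the wall. LTL1 (AT3G04290), a GDSL lipase, stood at 34.4, 47.7 and 60.3 CPM in the sink leaves and 2.02, 0.439 and 0.352 CPM in the source leaves (log2 fold change 5.8 ± 0.47, adjusted p = 9.59e-05). AT1G12570, annotated as a glucose-methanol-choline oxidoreductase, stood at 12.9, 17.5 and 27.6 CPM in the sink leaves and 0.415, 0.219 and 0.469 CPM in the source leaves (log2 fold change 5.69 ± 0.38, adjusted p = 3.39e-05). PDF1 (AT2G42840), protodermal factor 1 of the epidermis, stood at 8.07, 12.1 and 8.91 CPM in the sink leaves and 0.534, 0.263 and 0.469 CPM in the source leaves (log2 fold change 4.52 ± 0.30, adjusted p = 3.31e-05). AT3G16670, annotated as a Pollen Ole e 1 allergen and extensin family protein, stood at 184, 262 and 191 CPM in the sink leaves and 7.95, 5.399 and 7.11 CPM in the source leaves (log2 fold change 4.96 ± 0.21, adjusted p = 6.80e-06). CYP86A7, a fatty acid hydroxylase family member, was 24.4-fold higher and the germin gene GER3 23.2-fold. All 20 were also called higher in wild-type sink leaves, with log2 fold changes from 2.24 to 4.52, and source leaf 1 was the highest of the mutant source libraries in 17 of the 20.

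Of the cuticle and wax list 6 of 18 tested members were higher and 1 lower in mutant sink leaves, beside 14.8% and 12.4% of all tested genes. The list was split, with 10 positive and 8 negative log2 fold changes, and 11 members did not pass. The higher count was 9 without source leaf 1 and 4 to 6 without any other single library. BDG and LACS2, needed for cutin, were 1.91-fold and 2.1-fold higher, and CER4, which makes primary alcohols of wax, stood at 7.64, 4.29 and 5.57 CPM in the sink leaves and 2.25, 0.483 and 1.25 CPM in the source leaves (log2 fold change 2.18 ± 0.43, adjusted p = 0.00536). CER6, which elongates very long fatty acids, was the lower one, at 472, 424 and 596 CPM in the sink leaves and 1052, 742 and 823 CPM in the source leaves (log2 fold change -0.81 ± 0.19, adjusted p = 0.0123), a call lost without sink leaf 2. Flavonoid genes were higher in 5 of 9 tested members and lower in 1, beside the same shares of 14.8% and 12.4%. The higher count was 7 without source leaf 1 and 5 to 6 without any other single library. Chalcone synthase, CHS (AT5G13930), the first enzyme of the pathway, stood at 269, 265 and 393 CPM in the sink leaves and 93.99, 26.2 and 20.5 CPM in the source leaves (log2 fold change 2.73 ± 0.51, adjusted p = 0.00404). FLS1, flavonol synthase, stood at 20.6, 21.1 and 35.2 CPM in the sink leaves and 5.0997, 1.76 and 1.56 CPM in the source leaves (log2 fold change 3.25 ± 0.41, adjusted p = 0.000652), and MYB111, a flavonol regulator, was 5.19-fold higher. PAP1, a regulator of anthocyanin genes, went the other way, at 0.382, 0.668 and 0.557 CPM in the sink leaves and 1.07, 1.54 and 2.23 CPM in the source leaves (log2 fold change -1.61 ± 0.39, adjusted p = 0.0145), and lost its call without sink leaf 1 or source leaf 3. TT7, CHI and DFR did not pass, at 0.28, 0.54 and 1.0.

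Genes for building the chloroplast were higher in mutant sink leaves. In the chlorophyll synthesis list 15 of 22 tested members were higher and 1 lower, with a median of 0.63, and the higher count was 17 without source leaf 1 and 9 without sink leaf 3. PORA (AT5G54190), the protochlorophyllide oxidoreductase of greening tissue, stood at 8.26, 15.03 and 12.5 CPM in the sink leaves and 0.712, 0.351 and 0.313 CPM in the source leaves (log2 fold change 4.75 ± 0.34, adjusted p = 5.35e-05). PORB stood at 308, 561 and 421 CPM in the sink leaves and 169, 125 and 97.9 CPM in the source leaves (log2 fold change 1.72 ± 0.25, adjusted p = 0.00137), and PORC, used in mature green leaves, at 284, 249 and 273 CPM in the sink leaves and 148, 116 and 118 CPM in the source leaves (log2 fold change 1.08 ± 0.14, adjusted p = 0.000846). Sink and source values were apart for all 3 oxidoreductases. HEMA1, which commits glutamate to tetrapyrroles, was 1.88-fold and DVR, the divinyl reductase, 2.46-fold higher. The lower one was SIG5, a plastid sigma factor, at -0.54, and its call was lost without sink leaf 1, sink leaf 2, sink leaf 3, source leaf 2 or source leaf 3. The regulators GLK1 and GLK2 did not pass, at -0.37 and -0.39.

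In the photosystem list 16 of 34 members were higher and none lower, and all 34 had a positive log2 fold change, with a median of 0.66. The count depended strongly on single libraries, being 33 without source leaf 1, 5 without sink leaf 2, 6 without sink leaf 3, 4 without source leaf 2 and 10 without source leaf 3. LHCB3, a light-harvesting protein of photosystem II, stood at 5590.2, 5361 and 5463 CPM in the sink leaves and 2988, 2098 and 2113 CPM in the source leaves (log2 fold change 1.19 ± 0.21, adjusted p = 0.00328). LHCA1, of photosystem I, stood at 3335, 3230.4 and 3287 CPM in the sink leaves and 1679, 1216 and 1249.5 CPM in the source leaves (log2 fold change 1.25 ± 0.19, adjusted p = 0.00165). The calls of LHCB3, LHCA1, LHCB6 and LHCA4 held with every library left out. LHCB1.1, LHCB1.2 and LHCB1.3 are near-identical copies among which reads may be split, and stood at log2 fold changes of 1.08, 1.1 and 0.60, of which the last did not pass and the others lost their calls without sink leaf 2, sink leaf 3 or source leaf 2. Among wild-type leaves 27 of 34 tested members were higher and 0 lower in sink leaves, with a median of 0.76.

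Carbon fixation genes gave few calls. Of 19 tested Rubisco and Calvin cycle genes 3 were higher, beside 14.8% of all tested genes, and the count was 9 without source leaf 1, 1 without sink leaf 2, 1 without sink leaf 3, 1 without source leaf 2 and 1 without source leaf 3. RBCS2B, a Rubisco small subunit with near-identical copies, stood at 2889, 3226 and 3167 CPM in the sink leaves and 1874, 1566 and 1513 CPM in the source leaves (log2 fold change 0.91 ± 0.18, adjusted p = 0.00527). RBCS1A, RCA, PRK and SBPASE did not pass, at 0.52, 0.08, 0.14 and 0.31. Of 12 photorespiration genes 1 was higher, PGLP1, and 1 lower, CAT2, beside 14.8% and 12.4% of all tested genes. The higher count was 2 without source leaf 1, 0 without sink leaf 1, 0 without sink leaf 2, 0 without sink leaf 3, 0 without source leaf 2 and 0 without source leaf 3, and the lower count 2 without source leaf 1, 0 without sink leaf 1, 0 without sink leaf 2 and 0 without sink leaf 3. PGLP1 was called in none of the fits without sink leaves 1, 2 or 3 or source leaves 2 or 3. CAT2, the peroxisomal catalase of photosynthetic cells, stood at 2172, 2107 and 2059 CPM in the sink leaves and 4012, 3079 and 3244 CPM in the source leaves (log2 fold change -0.71 ± 0.18, adjusted p = 0.0192), and its call was lost without sink leaf 1, sink leaf 2 or sink leaf 3.

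Genes for sucrose export and loading gave few calls. Of the clade III SWEET genes 3 of 7 were tested and 1 was lower in mutant sink leaves, beside 12.4% of all tested genes. SWEET11 (AT3G48740), which releases sucrose for phloem loading, stood at 203, 140.3 and 92.4 CPM in the sink leaves and 321, 248 and 255 CPM in the source leaves (log2 fold change -0.92 ± 0.25, adjusted p = 0.0233). Its partner SWEET12 stood at 76.5, 52.3 and 34.96 CPM in the sink leaves and 109, 66.9 and 71.03 CPM in the source leaves (log2 fold change -0.59 ± 0.27, adjusted p = 0.14005). The source leaves were above the sink leaves for SWEET11, and its call was lost without sink leaf 2, sink leaf 3 or source leaf 1. Without sink leaf 1 all 3 tested members of the clade were called lower. SWEET13 did not pass, at -0.86. Outside the clade, SWEET1 was higher in sink leaves, at 21.5, 23.2 and 36.3 CPM in the sink leaves and 10.9, 14.6 and 13.4 CPM in the source leaves (log2 fold change 1.05 ± 0.21, adjusted p = 0.00541), and SWEET4 was called at 0.82 but not without sink leaf 1, sink leaf 2, source leaf 2 or source leaf 3. SUC2, the phloem loader, did not pass, at 342, 208 and 166 CPM in the sink leaves and 239, 143 and 152 CPM in the source leaves (log2 fold change 0.42 ± 0.28, adjusted p = 0.292). SUC5, a sucrose carrier with few counts, was 7.398-fold higher in sink leaves and SEOR1, a protein of sieve elements, 2.16-fold. These were the 2 called of 11 in that list, beside 14.8% of all tested genes called higher.

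Single members of the sucrose-making and sucrose-splitting families moved in opposite directions. The sucrose phosphate synthase genes diverged: SPS2F (AT5G11110) stood at 10.7, 6.68 and 8.15 CPM in the sink leaves and 26.1, 26.03 and 25.8 CPM in the source leaves (log2 fold change -1.61 ± 0.17, adjusted p = 0.000319), and SPS3F at 2.96, 2.78 and 4.25 CPM in the sink leaves and 1.305, 0.834 and 0.938 CPM in the source leaves (log2 fold change 1.72 ± 0.29, adjusted p = 0.00283). SPS1F and SPS4F did not pass, at -0.18 and -0.05. FBP, the cytosolic bisphosphatase before sucrose phosphate synthase, was 1.73-fold higher in sink leaves. Among the enzymes that split sucrose, CWINV6, listed with the cell wall invertases, stood at 1.43, 0.8904 and 0.8602 CPM in the sink leaves and 5.28, 7.77 and 8.41 CPM in the source leaves (log2 fold change -2.74 ± 0.28, adjusted p = 0.000283). SUS1, a sucrose synthase, stood at 31.8, 23.9 and 25.2 CPM in the sink leaves and 47.4, 58.3 and 57.9 CPM in the source leaves (log2 fold change -1.02 ± 0.15, adjusted p = 0.00127). SUS5 and SUS6, the sucrose synthases known from sieve elements, were higher in sink leaves, at 2.26 and 2.13. CWINV1, VI2 and SUS2 did not pass, at 0.05, 0.26 and -0.19. All these calls held with each library left out. In all, 2 of 8 tested sucrose-splitting genes were higher and 3 lower in sink leaves, beside 14.8% and 12.4% of all tested genes. The third lower one was SUS3, whose call was lost without sink leaf 2, sink leaf 3 or source leaf 3.

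Among hexose carriers, STP13 (AT5G26340), a proton symporter known to be induced by pathogens and stress, stood at 4.63, 7.12 and 4.76 CPM in the sink leaves and 22.8, 32.1 and 36.7 CPM in the source leaves (log2 fold change -2.48 ± 0.22, adjusted p = 0.000168). STP1, the monosaccharide importer of guard cells and other tissues, went the other way, at 179, 215 and 163 CPM in the sink leaves and 124, 104 and 90.3 CPM in the source leaves (log2 fold change 0.81 ± 0.16, adjusted p = 0.00556). ERD6 was lower in sink leaves at -0.62, a call lost without sink leaf 2, sink leaf 3 or source leaf 2, and STP4, STP7, STP14, ESL1 and VGT1 did not pass. That made 1 higher and 2 lower of 8 tested carriers, beside 14.8% and 12.4% of all tested genes. The higher count was 1 without source leaf 1 and 1 without any other single library, and the lower count 3 without source leaf 1, 4 without sink leaf 1, 1 without sink leaf 2, 1 without sink leaf 3 and 1 without source leaf 2. In the wild type STP13 stood at 20.06, 35.7 and 16.7 CPM in the wild-type sink leaves and 30.2, 29.3 and 20.7 CPM in the wild-type source leaves, and the leaf types overlapped. The difference of the STP13 contrasts was -2.38 (unadjusted p = 3.82e-05, adjusted p = 0.101).

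Starch and trehalose genes changed in single members. GPT2, a glucose phosphate carrier of plastids, stood at 3.296, 1.78 and 1.16 CPM in the sink leaves and 5.93, 11.2 and 11.3 CPM in the source leaves (log2 fold change -2.19 ± 0.37, adjusted p = 0.00258), while the ADP-glucose pyrophosphorylase genes APS1 and APL1 were 1.58-fold and 1.51-fold higher in sink leaves. In that list 3 of 15 tested members were higher and 1 lower, beside 14.8% and 12.4% of all tested genes. The count was 3 without source leaf 1 and 2 to 3 without any other single library on the higher side. In starch breakdown 2 of 19 were higher and 2 lower, beside 14.8% and 12.4% of all tested genes. The higher count there was 4 without source leaf 1, 1 without sink leaf 1, 1 without sink leaf 2, 1 without sink leaf 3, 1 without source leaf 2 and 1 without source leaf 3, and the lower count 1 without source leaf 1, 1 without sink leaf 1, 0 without sink leaf 2, 1 without sink leaf 3 and 0 without source leaf 3. PHS1, the plastid phosphorylase, stood at 42.8, 38.7 and 43.5 CPM in the sink leaves and 25.9, 24.1 and 24.98 CPM in the source leaves (log2 fold change 0.74 ± 0.11, adjusted p = 0.001602). TPS1, the trehalose phosphate synthase, stood at 74.6, 58.6 and 49.4 CPM in the sink leaves and 28.7, 29.98 and 38.6 CPM in the source leaves (log2 fold change 0.91 ± 0.18, adjusted p = 0.00499), and TPS10, of the class II proteins, at 25.8, 16.1 and 17.4 CPM in the sink leaves and 49.04, 47.1 and 41.8 CPM in the source leaves (log2 fold change -1.21 ± 0.18, adjusted p = 0.00137). Each pair of leaf types was apart. The trehalose list had 4 higher and 1 lower of 16 tested, beside the same shares of 14.8% and 12.4%. Its higher count was 3 without source leaf 1, 2 without sink leaf 1, 2 without sink leaf 2, 2 without sink leaf 3 and 2 without source leaf 2.

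Amino acid carriers lay on the source side. Of 12 of 14 tested, 6 were lower and 0 higher in mutant sink leaves, beside 12.4% of all tested genes, with a median of -0.73. The lower count was 5 without source leaf 1 and 5 to 6 without any other single library. AAP2 (AT5G09220), which moves amino acids between xylem and phloem, stood at 64.1, 20.9 and 11.8 CPM in the sink leaves and 303, 296 and 404 CPM in the source leaves (log2 fold change -3.37 ± 0.52, adjusted p = 0.00169). LHT1 (AT5G40780), an importer of neutral and acidic amino acids, stood at 9.31, 8.35 and 12.1 CPM in the sink leaves and 26.3, 24.5 and 27.01 CPM in the source leaves (log2 fold change -1.38 ± 0.16, adjusted p = 0.000438). UMAMIT28, an exporter, stood at 3.63, 2.003 and 0.759 CPM in the sink leaves and 8.95, 10.2 and 14.3 CPM in the source leaves (log2 fold change -2.38 ± 0.41, adjusted p = 0.00283). The source libraries were above the sink libraries in every one of these. UMAMIT29 had no count in sink leaves and 93 in source leaves, at least 27.9-fold lower against a floor of 3 counts over the 3 sink libraries (adjusted p = 0.00148). AAP3, an importer, was 9.13-fold lower. AAP1, AAP4, AAP5, AAP6, UMAMIT11 and SIAR1 did not pass, at -0.02, -0.86, -0.30, -0.36, -0.13 and 1.09.

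Among wild-type leaves 0 of 11 tested members were higher and 2 lower in sink leaves, with a median of -0.17. The shares of all genes tested in the wild type were 10.9% and 6.23%. LHT1 stood there at 42.3, 55.4 and 49.97 CPM in the wild-type sink leaves and 61.3, 51.6 and 48.9 CPM in the wild-type source leaves, and the difference between the mutant and wild-type contrasts was -1.29 (unadjusted p = 2.94e-05, adjusted p = 0.101), with an unadjusted p of at most 0.00021 with any one library left out. For AAP2 the difference was -1.75 (unadjusted p = 0.0403, adjusted p = 0.463), and without wild-type sink leaf 1 its unadjusted p was 0.182.

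Of the genes that fix nitrogen into amino acids, 4 of 18 were lower and 1 higher in mutant sink leaves, beside 12.4% and 14.8% of all tested genes. The lower count was 4 without source leaf 1 and 4 to 6 without any other single library. ASN2 (AT5G65010), an asparagine synthetase, stood at 89.8, 115 and 87.5 CPM in the sink leaves and 231, 294 and 188 CPM in the source leaves (log2 fold change -1.29 ± 0.19, adjusted p = 0.001299). The cytosolic glutamine synthetases GLN1;1 and GLN1;2, linked to nitrogen export, were lower, GLN1;1 at 48.9, 36.4 and 36.3 CPM in the sink leaves and 74.6, 70.02 and 69.2 CPM in the source leaves (log2 fold change -0.81 ± 0.14, adjusted p = 0.00302) and GLN1;2 at a log2 fold change of -0.69. NIA2, the main nitrate reductase, stood at 2274, 2217 and 2071 CPM in the sink leaves and 5756, 4023 and 3599.7 CPM in the source leaves (log2 fold change -1.03 ± 0.22, adjusted p = 0.00792). In all 4 the source leaves were the higher group in every library. ASN1, the asparagine synthetase of low energy, did not pass: it stood at 22.7, 159 and 59.3 CPM in the sink leaves and 12.5, 44.3 and 19.6 CPM in the source leaves (log2 fold change 1.65 ± 0.63, adjusted p = 0.07996), with wide spread among the sink leaves. The plastid enzymes GLN2 and GLU1 did not pass, at 0.24 and 0.35. Of the nitrate and ammonium transporters 2 were higher and 1 lower of 15 tested, beside 14.8% and 12.4% of all tested genes. The higher count was 3 without source leaf 1, 1 without sink leaf 1, 1 without sink leaf 2, 1 without sink leaf 3 and 1 without source leaf 2, and the lower count 1 without source leaf 1, 3 without sink leaf 1 and 2 without source leaf 3. NRT2.1, a high-affinity nitrate transporter, was higher at 1.65, a call lost without sink leaf 1, sink leaf 2, sink leaf 3 or source leaf 2. NRT1.5 stood at 11.7, 9.74 and 10.1 CPM in the sink leaves and 22.4, 25.2 and 31.7 CPM in the source leaves (log2 fold change -1.33 ± 0.16, adjusted p = 0.000537) and NRT1.12, which helps allocate nitrate to young leaves, was 2.303-fold higher.

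Of 8 tested proline genes 2 were higher and 2 lower in mutant sink leaves, beside 14.8% and 12.4% of all tested genes. The higher count was 2 without source leaf 1 and 2 without any other single library, and the lower count 3 without source leaf 1, 1 without sink leaf 3 and 1 without source leaf 2. PRODH1 (AT3G30775), which degrades proline and whose promoter carries ACTCAT, stood at 30.7, 69.6 and 45.7 CPM in the sink leaves and 23.7, 23.7 and 14.3 CPM in the source leaves (log2 fold change 1.25 ± 0.29, adjusted p = 0.0112). P5CS1 and P5CR, the enzymes of proline synthesis, were lower in sink leaves, P5CS1 at 127, 124 and 149 CPM in the sink leaves and 199, 199 and 303 CPM in the source leaves (log2 fold change -0.81 ± 0.18, adjusted p = 0.0104) and P5CR at -0.55. The call of P5CR was lost without sink leaf 3 or source leaf 2. The transporter PROT3 was 3.19-fold higher. P5CS2, P5CDH, PROT1 and PROT2 did not pass, at -0.36, -0.26, -0.26 and -0.27. PRODH1 in the reference stood at 15.8, 20.03 and 18.7 CPM in the wild-type sink leaves and 19.9, 17.4 and 18.1 CPM in the wild-type source leaves, with a log2 fold change of -0.02 (adjusted p = 0.916). The difference of the contrasts was 1.22 (unadjusted p = 0.00412, adjusted p = 0.248), so it did not pass the correction, and its unadjusted p was at most 0.0119 with any one library left out.

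Genes induced by low energy or darkness were mixed, 3 higher and 5 lower of 15 tested, beside 14.8% and 12.4% of all tested genes. EXO, described above, was one of the 3 higher. DIN2 (AT3G60140), a beta-glucosidase, had 2 counts in the sink and 419 in the source libraries, a ratio of 188 with a 95% counting interval from 51.8 to 1561 (adjusted p = 0.00262). EXL2 stood at 14.9, 14.7 and 18.3 CPM in the sink leaves and 57.2, 47.2 and 44.1 CPM in the source leaves (log2 fold change -1.63 ± 0.15, adjusted p = 0.000172). DIN10 and DRM1 did not pass, at 0.94 and -0.92. The lower count was 6 without source leaf 1, 3 without sink leaf 3 and 3 without source leaf 2, and the higher count 3 without source leaf 1 and 1 without sink leaf 2.

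Senescence genes were higher in mutant source leaves. Of 18 tested members 9 were lower and none higher in sink leaves, with a median of -0.52, and the lower count was 12 without source leaf 1 and 6 to 9 without any other single library. ORE1 (AT5G39610), a NAC factor that promotes leaf ageing, stood at 0.669, 0.167 and 0.101 CPM in the sink leaves and 10.8, 5.36 and 5.67 CPM in the source leaves (log2 fold change -4.46 ± 0.52, adjusted p = 0.000478). ORS1, its NAC relative, stood at 0.143, 0 and 0.0506 CPM in the sink leaves and 6.17, 4.04 and 8.68 CPM in the source leaves (log2 fold change -6.41 ± 0.56, adjusted p = 0.000131). SAG13 stood at 16.3, 16.8 and 12.5 CPM in the sink leaves and 48.4, 153 and 159 CPM in the source leaves (log2 fold change -2.98 ± 0.39, adjusted p = 0.000794). Source leaf 1 was the highest of its group for ORE1 and the lowest for SAG13. SGR2, a paralogue of the chlorophyll-degrading STAY-GREEN, was 23.8-fold lower in sink leaves, and PPH, which removes the phytol tail of pheophytin, stood at 35.8, 28.7 and 33.3 CPM in the sink leaves and 60.4, 65.8 and 72.4 CPM in the source leaves (log2 fold change -1.02 ± 0.13, adjusted p = 0.000732). SAG12, a late senescence peptidase, did not pass the filter. It had 2 counts in the sink and 832 in the source libraries, at 0, 0 and 0.101 CPM in the sink leaves and 0, 12.4 and 21.5 CPM in the source leaves. Its source counts thus came from source leaves 2 and 3, and the groups overlapped, since source leaf 1 and sink leaves 1 and 2 had none. NAP, WRKY53, WRKY6 and NYC1 did not pass, at -1.58, -0.21, -0.32 and -0.01.

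In the wild type 1 of 18 tested members were higher and 5 lower in sink leaves, with a median of -0.38. The shares of all genes tested in the wild type were 10.9% and 6.23%. ORE1 stood there at 8.73, 8.496 and 5.196 CPM in the wild-type sink leaves and 28.9, 24.7 and 24.6 CPM in the wild-type source leaves, a log2 fold change of -1.8 (adjusted p = 0.000723), and the difference of the contrasts was -2.7 (unadjusted p = 0.00042, adjusted p = 0.128). In 7 of 19 tested senescence genes the contrast was lower in the mutant at an unadjusted p under 0.05, beside 7.29% of all genes tested for the difference.

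Salicylic acid and immune genes were higher in mutant source than sink leaves in 8 of 18 tested members and lower in none, with a median of -0.67. The count was 9 without source leaf 1 and 7 to 8 without any other single library. PR1 (AT2G14610), the classic salicylic acid marker, stood at 56.2, 29.8 and 47.7 CPM in the sink leaves and 158, 506 and 411 CPM in the source leaves (log2 fold change -3.01 ± 0.40, adjusted p = 0.000848). PR2, a glucanase, stood at 239.7, 304 and 287 CPM in the sink leaves and 779, 1299.7 and 1314 CPM in the source leaves (log2 fold change -2.03 ± 0.22, adjusted p = 0.000399). The leaf types were apart, and source leaf 1 was the lowest source library for both. PAD4, an immune regulator, stood at 51.2, 43.1 and 49.8 CPM in the sink leaves and 83.3, 75.2 and 74.3 CPM in the source leaves (log2 fold change -0.69 ± 0.12, adjusted p = 0.00307), and FMO1, which makes N-hydroxypipecolic acid, at 0.669, 1.67 and 0.961 CPM in the sink leaves and 2.91, 8.16 and 7.54 CPM in the source leaves (log2 fold change -2.52 ± 0.44, adjusted p = 0.00296). EDS5, the exporter of the salicylic acid precursor, was 1.63-fold lower in sink leaves. ICS1, EDS1, NPR1, SARD1 and PBS3 did not pass, at -0.19, 0.25, -0.09, -0.21 and -0.85.

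The wild-type reference for these genes was spread. PR1 stood there at 97.2, 671 and 56.8 CPM in the wild-type sink leaves and 291, 132 and 592 CPM in the wild-type source leaves, and wild-type sink leaf 2 was the highest of all 6 wild-type leaf libraries. Over the list, 2 of 18 tested members were higher and 0 lower in sink leaves, with a median of 0.42. The shares of all genes tested in the wild type were 10.9% higher and 6.23% lower. In 12 of 18 members the contrast was lower in the mutant at an unadjusted p under 0.05, beside 7.29% of all genes, and this count was 7 to 14 with any one library left out. For PAD4 the difference was -1.01 (unadjusted p = 0.000356, adjusted p = 0.121). For PR1 it was -2.76 (unadjusted p = 0.0246, adjusted p = 0.404), and without wild-type sink leaf 2 its unadjusted p was 0.236.

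Aliphatic glucosinolates are sulfur-rich defence compounds made from methionine. In that pathway 10 of 16 tested genes were lower and 1 higher in mutant sink leaves, with a median of -0.69, and the lower count was 7 without source leaf 1 and 7 to 12 without any other single library. MAM3 (AT5G23020), a methionine chain-elongating synthase and one of the 20 largest falls, stood at 3.06, 1.06 and 0.8602 CPM in the sink leaves and 50.9, 50.7 and 67.8 CPM in the source leaves (log2 fold change -5.06 ± 0.37, adjusted p = 5.29e-05). BCAT4, the aminotransferase that opens chain elongation, stood at 54.7, 20.4 and 27.3 CPM in the sink leaves and 149, 88.98 and 136 CPM in the source leaves (log2 fold change -1.87 ± 0.33, adjusted p = 0.00346), and MAM1 at 111, 49.6 and 56.3 CPM in the sink leaves and 203, 155 and 219 CPM in the source leaves (log2 fold change -1.41 ± 0.28, adjusted p = 0.00568). The source leaves were the higher group in every library for the 3 genes. CYP83A1, of the core pathway, was 2.17-fold and FMOGS-OX1, which oxidises the side chain, 2.195-fold lower. MAM1 and MAM3, and CYP79F1 and CYP79F2, are close paralogues among which reads may be split. The regulators MYB28, MYB29 and MYB76 did not pass, at -0.09, -0.07 and -0.66. GTR1, a glucosinolate transporter, was the higher one, at 0.45, a call lost without sink leaf 1, sink leaf 3, source leaf 2 or source leaf 3.

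No gene of this list was called in the wild type at the same threshold, where 16 were tested with a median of -0.09. Of all genes tested in the wild type, 10.9% were called higher and 6.23% lower in sink leaves. In 9 of 16 members the contrast was lower in the mutant at an unadjusted p under 0.05, beside 7.29% of all genes. This count was 7 to 11 with any one library left out, and no member passed the correction with all 12 libraries. None of the 6 indolic glucosinolate genes was called in the mutant, with log2 fold changes of -0.06, -0.29, -0.40, 0.14, -0.28 and -0.18 for CYP79B2, CYP79B3, CYP83B1, MYB34, MYB51 and CYP81F2.

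**Figure D3:**
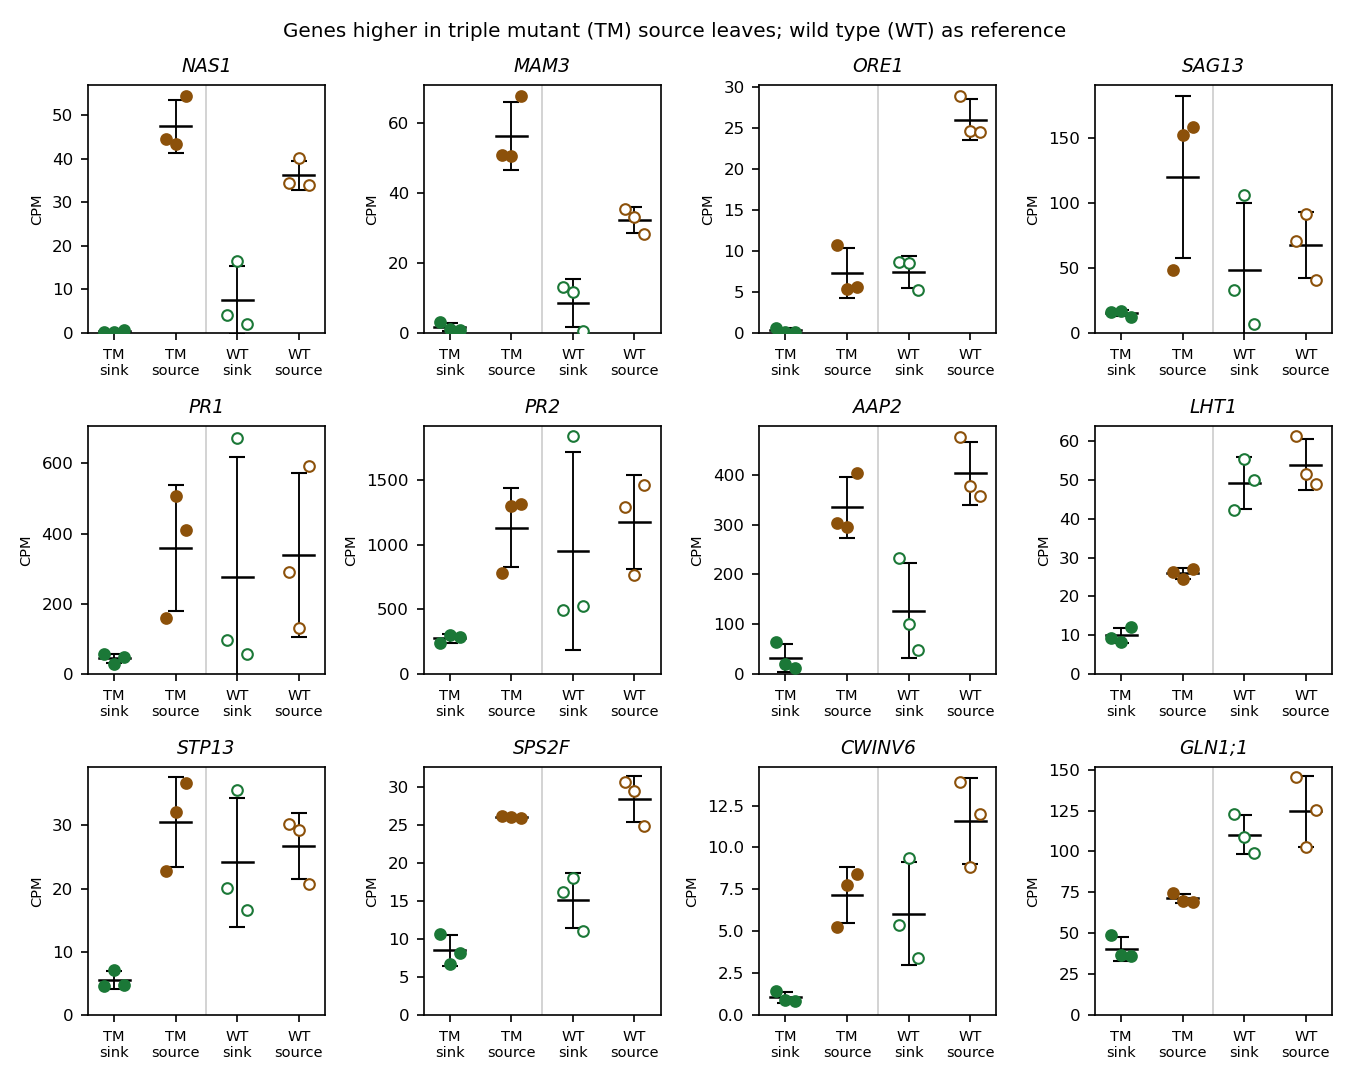
CPM (vertical axes, from 0, scaled within each genotype) in each leaf library for 12 genes named as higher in mutant source leaves. Filled points are the triple mutant and open points the wild type, green for sink and brown for source leaves, and bars give the mean and SD of 3 libraries. The mutant leaf types are apart in every panel, as for NAS1 at 0.287, 0.278 and 0.658 CPM in sink and 44.5, 43.4 and 54.3 CPM in source leaves, while for PR1 and PR2 wild-type sink leaf 2 is the highest wild-type library.

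Jasmonate genes were lower in mutant sink leaves in 7 of 15 members and higher in 1, beside 12.4% and 14.8% of all tested genes. The lower count was 8 without source leaf 1 and 5 to 7 without any other single library. AOC1, an allene oxide cyclase of jasmonate synthesis with near-identical copies, stood at 5.97, 3.896 and 6.83 CPM in the sink leaves and 15.1, 16.99 and 21.3 CPM in the source leaves (log2 fold change -1.67 ± 0.22, adjusted p = 0.000794). OPR3, a later enzyme, was 1.58-fold and the repressor gene JAZ1 1.803-fold lower. VSP1, a storage protein induced by jasmonate, stood at 0.287, 0.3896 and 0.506 CPM in the sink leaves and 0.949, 5.004 and 5.67 CPM in the source leaves (log2 fold change -3.31 ± 0.63, adjusted p = 0.00443). PDF1.2 (AT5G44420), a plant defensin induced by jasmonate with ethylene and with near-identical copies, was the higher one, at 46.1, 114 and 91.8 CPM in the sink leaves and 15.3, 32.2 and 30.8 CPM in the source leaves (log2 fold change 1.68 ± 0.34, adjusted p = 0.00633). Its wild-type log2 fold change was -0.84 (adjusted p = 0.275), a difference of 2.47 (unadjusted p = 0.00356, adjusted p = 0.241). LOX2, LOX3, MYC2 and VSP2 did not pass, at -0.13, -0.17, -0.53 and 0.36.

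Of the abscisic acid and dehydration list 13 of 16 were tested, with a median of -0.91. In mutant sink leaves 7 were lower and 1 higher, beside 12.4% and 14.8% of all tested genes. The lower count was 10 without source leaf 1 and 5 to 7 without any other single library. HB7, a homeodomain factor induced by abscisic acid, stood at 4.299, 3.73 and 5.36 CPM in the sink leaves and 14.9, 17.2 and 19.7 CPM in the source leaves (log2 fold change -1.95 ± 0.18, adjusted p = 0.000184). COR47, a dehydrin, stood at 50.5, 45.2 and 59.96 CPM in the sink leaves and 105.1, 102 and 109.6 CPM in the source leaves (log2 fold change -1.02 ± 0.13, adjusted p = 0.000797), and HAI1, a phosphatase of the abscisic acid pathway, at 0.191, 1.56 and 1.16 CPM in the sink leaves and 2.55, 9.09 and 8.48 CPM in the source leaves (log2 fold change -2.83 ± 0.60, adjusted p = 0.00731). NCED3, which makes the hormone under drought, was 2.48-fold lower, a call lost without sink leaf 2 or sink leaf 3. COR15B, a cold-induced chloroplast protein, was the higher one, at 9.51, 16.9 and 16.04 CPM in the sink leaves and 4.27, 6.89 and 4.18 CPM in the source leaves (log2 fold change 1.46 ± 0.27, adjusted p = 0.00367). RAB18, COR15A, ABI1, ABI2 and HB12 did not pass, at -0.57, -0.42, -0.30, -0.24 and -0.51. Of 8 touch and wounding genes TCH4 was higher, and the cold factors CBF1 and CBF2 and the zinc finger gene ZAT12 were lower, at -2.72, -1.17 and -0.97. The shares of all tested genes were again 14.8% higher and 12.4% lower. The lower count of the touch and wounding list was 3 without source leaf 1 and 2 to 4 without any other single library.

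Hormone lists changed in part, beside 14.8% of all tested genes called higher and 12.4% called lower in sink leaves. The auxin-induced repressor genes IAA19 and IAA6 were 2.71-fold and 5.31-fold higher in sink leaves. GH3.3, which conjugates auxin, was lower, at 1.24, 0.723 and 0.759 CPM in the sink leaves and 2.31, 2.77 and 2.81 CPM in the source leaves (log2 fold change -1.52 ± 0.30, adjusted p = 0.00516). In all, 4 of 11 auxin genes were higher and 2 lower, with the higher count at 6 without source leaf 1 and 3 to 4 without any other single library and the lower count at 2 without source leaf 1, 1 without sink leaf 2, 1 without sink leaf 3, 1 without source leaf 2 and 1 without source leaf 3. Of 12 cytokinin genes 4 were higher, led by CKX6, a cytokinin oxidase, at 24.3, 19.4 and 18.1 CPM in the sink leaves and 12.1, 11.1 and 11.6 CPM in the source leaves (log2 fold change 0.83 ± 0.14, adjusted p = 0.00312), and 1 lower, IPT3. The higher count was 3 without source leaf 1, 2 without source leaf 2 and 1 without source leaf 3, and IPT3 lost its call without sink leaf 2, sink leaf 3, source leaf 2 or source leaf 3. GASA4, a gibberellin-induced peptide gene, stood at 44.5, 35.005 and 39.5 CPM in the sink leaves and 13.8, 7.24 and 6.92 CPM in the source leaves (log2 fold change 2.1 ± 0.25, adjusted p = 0.000504), one of 2 called of 6. The other, GASA6, lost its call without sink leaf 1, sink leaf 2, source leaf 2 or source leaf 3.

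Of the phase and flowering time genes 5 of 9 were higher and 1 lower in mutant sink leaves, beside 14.8% and 12.4% of all tested genes. The higher count was 6 without source leaf 1, 2 without source leaf 2 and 2 without source leaf 3. FUL, a MADS factor, stood at 9.22, 9.74 and 9.16 CPM in the sink leaves and 5.04, 3.16 and 4.46 CPM in the source leaves (log2 fold change 1.16 ± 0.19, adjusted p = 0.00248) and SOC1, a MADS integrator of flowering, at 17.3, 14.8 and 14.7 CPM in the sink leaves and 10.97, 10.8 and 9.89 CPM in the source leaves (log2 fold change 0.56 ± 0.13, adjusted p = 0.0131). SPL4 was the lower one, at 3.77, 4.01 and 3.39 CPM in the sink leaves and 6.17, 6.98 and 8.95 CPM in the source leaves (log2 fold change -0.99 ± 0.20, adjusted p = 0.00537). FT and FLC did not pass the filter. Of the iron list 2 were higher and 2 lower of 8, beside 14.8% and 12.4% of all tested genes. The higher ones were the ferritins FER3 and FER4, at 1.04 and 0.92. The lower ones were the transport genes OPT3 and NAS4, at -0.55 and -1.3. The lower count was 2 without source leaf 1, 4 without sink leaf 1, 0 without sink leaf 2, 1 without sink leaf 3 and 1 without source leaf 3. OPT3 lost its call without sink leaf 2, sink leaf 3 or source leaf 3, and NAS4 without sink leaf 2 or source leaf 1. NAS1 (AT5G04950), a nicotianamine synthase of metal transport and one of the 20 largest falls, stood at 0.287, 0.278 and 0.658 CPM in the sink leaves and 44.5, 43.4 and 54.3 CPM in the source leaves (log2 fold change -6.84 ± 0.26, adjusted p = 3.34e-06). Its wild-type log2 fold change was -2.25 (adjusted p = 0.02498), a difference of -4.63 (unadjusted p = 0.000128, adjusted p = 0.101).

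The remaining lists held 1 or 2 calls each, beside 14.8% of all tested genes called higher and 12.4% called lower in sink leaves. Cytosolic ribosome genes gave 0 higher and 2 lower of 17, and the 2 lower ones, NUC-L1 at 98.6, 131 and 117 CPM in the sink leaves and 201, 229 and 188 CPM in the source leaves (log2 fold change -0.83 ± 0.15, adjusted p = 0.00335) and FIB1 at -0.59, code for nucleolar proteins. The call of FIB1 was lost without sink leaf 1, sink leaf 3 or source leaf 2. Clock genes gave 1 call of 11, GRP7 at -0.67, lost without sink leaf 2, sink leaf 3, source leaf 1 or source leaf 2. Phosphate starvation genes gave 1 of 7, SQD1, for sulfolipid synthesis, at 112, 98.9 and 116 CPM in the sink leaves and 77.1, 65.6 and 72.9 CPM in the source leaves (log2 fold change 0.60 ± 0.12, adjusted p = 0.00684). GL2, a homeodomain factor of trichomes, was 1.805-fold and MYB106 1.54-fold higher in sink leaves, 2 of 3 tested trichome genes, and MYB106 lost its call without sink leaf 3, source leaf 2 or source leaf 3. The trichome count was 2 without source leaf 1, 4 without sink leaf 1, 1 without sink leaf 3 and 1 without source leaf 3, out of the members that passed the filter in each fit.

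Markers of cells that could be carried over with a leaf were counted in the same libraries. Of 14 meristem and flower markers, 4 were at 0 counts in all 6 mutant leaf libraries, CLV3, WUS, LAS and LFY, and 8, these 4 among them, had at most 3 counts over the 6. AG, a floral organ factor, had 4 counts in the sink and 31 in the source libraries. KNAT6 was the only one tested, at 43 counts in the sink and 30 in the source libraries. Their summed level was 0.723 to 1.37 CPM in mutant sink and 0.821 to 1.78 CPM in mutant source leaves. The phloem markers SUC2, APL and PP2-A1 did not pass, at 0.42, 0.14 and -0.19, beside the higher SEOR1, and the part of any other cell type in the list results was not tested. Photosystem genes of leaf photosynthetic cells were counted in all 6 libraries, LHCB1.1 at 12839, 14872 and 13756 CPM in the sink leaves and 9095, 5788 and 4737 CPM in the source leaves.

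The 20 largest falls, at log2 fold changes from -9.39 to -4.88, included genes at few or no counts in mutant sink leaves. DOX1 (AT3G01420), a dioxygenase that makes defence oxylipins, had 3 counts in the 3 sink libraries and 1588 in the source libraries, a ratio of 476 with a 95% counting interval from 163 to 2311 (adjusted p = 0.000524). OSM34 (AT4G11650), an osmotin-like protein, had 2 against 1143, a ratio of 514 with an interval from 142 to 4249.8 (adjusted p = 0.000982). Both were thus close to absent from the sink libraries. CYP82C2 (AT4G31970), a cytochrome P450, had no count in sink leaves and 279 in source leaves, at least 83.7-fold lower against a floor of 3 counts over the group (adjusted p = 0.00291). KTI1 (AT1G73260), a Kunitz trypsin inhibitor, stood at 0.525, 0.167 and 0.152 CPM in the sink leaves and 8.95, 52.3 and 53.9 CPM in the source leaves (log2 fold change -7.03 ± 0.81, adjusted p = 0.00045). ST2A (AT5G07010), which sulfates hydroxyjasmonate, stood at 0, 0.278 and 0.0506 CPM in the sink leaves and 1.898, 4.96 and 4.22 CPM in the source leaves (log2 fold change -5.1 ± 0.68, adjusted p = 0.000852), and DR4 (AT1G73330), annotated as drought-repressed, at 0.0478, 0.3896 and 0.202 CPM in the sink leaves and 3.02, 7.33 and 11.3 CPM in the source leaves (log2 fold change -5.11 ± 0.63, adjusted p = 0.000609). Source leaf 1 was the lowest of the 3 source libraries in 16 of the 20. None of the 20 calls was lost with any one library left out. The 20 were picked by adjusted p, lack of overlap and size of the mutant fold change. That outcome was thus largely set by the choice and is no further support. Of the 18 tested in the wild type, 4 were called lower in sink leaves, with wild-type log2 fold changes from -3.79 to 0.80. For genes picked as mutant extremes, a smaller wild-type change is not by itself a difference between genotypes.

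Mutant and wild-type contrasts come from separate libraries and were compared gene by gene. Of 18617 genes tested in both, 5032 were called in the mutant and 3191 in the wild type, both without a replicate block, and 2332 in both, 46.3% of the mutant calls and 73.1% of the wild-type calls. In 2329 of these 2332 the direction was the same, and in 1730 the mutant fold change was the larger. Of all 5032 mutant calls, 4732 (94.0%) had the same direction in the wild type, whether called there or not. Across the 18617 genes, which are not independent replicates, the log2 fold changes correlated at r = 0.765.

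The difference between the contrasts was tested as the genotype by tissue term in all 12 leaf libraries. None of 19415 genes passed at an adjusted p under 0.05 in edgeR's quasi-likelihood test, where the lowest adjusted p was 0.0615. At an unadjusted p under 0.05 there were 2003, 10.3%, of which 1415 (7.29%) had the lower contrast in the mutant and 588 (3.03%) the higher. DESeq2 called 179 genes for the same term, 145 with the lower and 34 with the higher contrast in the mutant. In edgeR, 0 to 50 genes passed with any one library left out, 50 of them without wild-type sink leaf 3, 15 without mutant source leaf 1, 3 without mutant sink leaf 1 and 2 without wild-type sink leaf 2. Of the genes named here by rule, 17 were among the 179. LHT1 (adjusted p = 0.000176), STP13 (adjusted p = 4.89e-05), ORE1 (adjusted p = 0.000794), NAS1 (adjusted p = 0.00134) and PAD4 (adjusted p = 0.0075995) had the lower contrast in the mutant by DESeq2, and EXO (adjusted p = 0.00257) the higher.

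**Figure D4:**
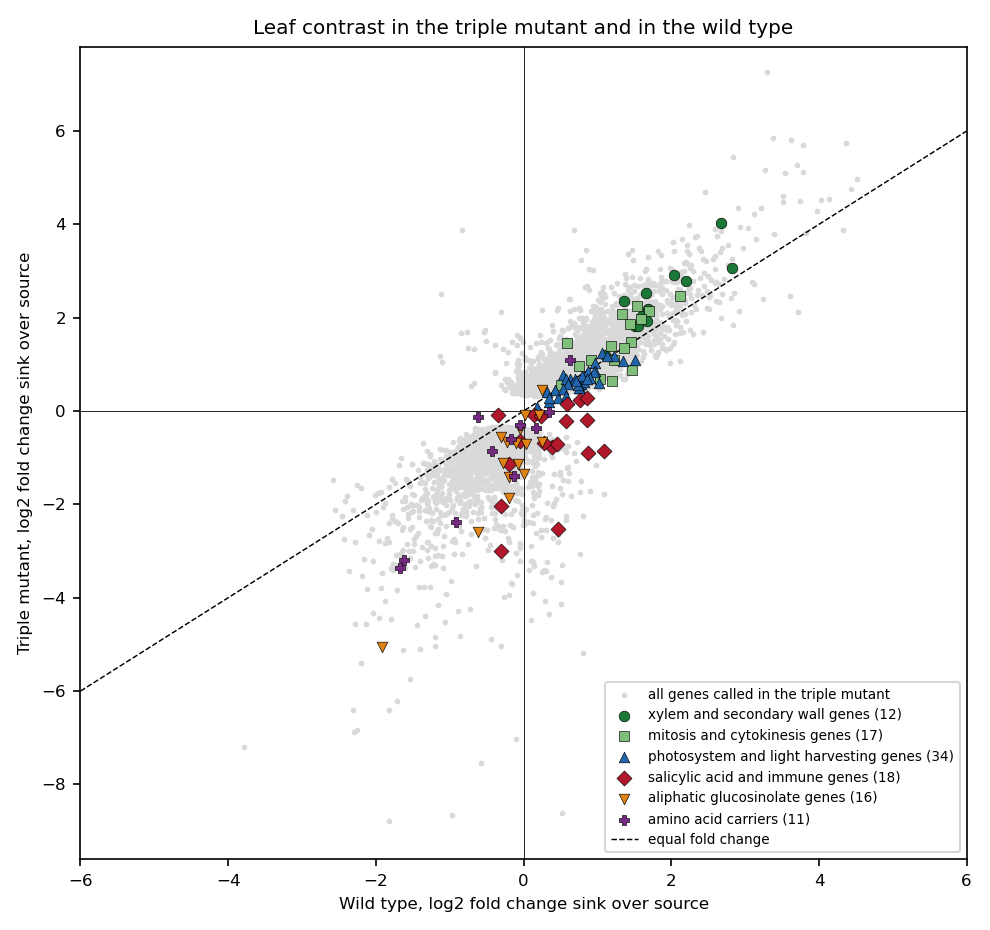
Log2 fold change of sink over source leaves in the triple mutant (vertical axis) against that in the wild type (horizontal axis) for genes called in the mutant (grey) and for all members of 6 gene lists tested in both (coloured, numbers in parentheses), with a dashed line at equal fold changes. The xylem genes have medians of 2.28 in the mutant and 1.67 in the wild type, the mitosis genes 1.43 and 1.34, and the salicylic acid genes -0.67 and 0.42.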

How the data were processed

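Poly-A RNA (500 ng of total RNA, stranded TruSeq libraries, per the labels' protocols) was deposited as read counts per gene, which the authors made with tools that the submitters' processing notes list as Salmon 0.7.2, R 3.5.1, SAMtools 0.1.18, edgeR and DESeq2 on TAIR10. The labels do not state whether counting used strand, so antisense and overlapping genes may share reads. The 6 mutant libraries were fitted in edgeR 4.0.16 (R 4.3.3) with TMM scaling, filterByExpr, the quasi-likelihood F test and Benjamini-Hochberg adjustment, without a replicate block. The wild type was fitted likewise, and the genotype by tissue term in all 12 libraries. The code was tested on simulated data. DESeq2 1.42.0, other scalings, filters and left-out libraries were alternatives. Same-numbered wild-type libraries deviated together from their group means (r = 0.141, 0.182 and 0.302). Each wild-type sink library matched its own number best. The labels give only replicate numbers and do not say whether equal numbers share plants or a batch.

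Gene names came from RefSeq's TAIR10.1 table, and 10 of 646 list members without a match were left out. Named genes were list members, up to 8 passing per list by smallest p with those that did not pass, and the 20 largest rises and falls whose groups did not overlap and whose higher mean reached 2 CPM. Where a list has more names, they were added after their values were seen. The members and lists were chosen with earlier results of these data known.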

Additional observations from a re-analysis of the deposited data

How the results depend on the processing

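The mutant leaf contrast called 5126 genes and 5148 with RLE scaling, 5484 with DESeq2, 5394 with no low-count filter and 6364 in the 12-library model. Requiring a minimum fold of 1.5 in the test gave 1555, of which 882 were higher and 673 lower in sink leaves. With any one library left out 3421 to 5312 were called, 1881 to 2966 higher and 1482 to 2346 lower. For the mutant replicate numbers the correlations of deviations were 0.00144, 0.150 and 0.0536, and 2 of 3 sink libraries matched their own number best. With the replicate block 5289 genes were called in the mutant. In the wild type the minimum fold gave 558 calls, 485 higher and 73 lower, the replicate block gave 1813 lower, and leaving out one library gave 1615 to 2767 calls, 1124 to 1729 higher and 491 to 1038 lower. For the difference between genotypes edgeR called 0 genes (2003 at an unadjusted p under 0.05), and 0 with the replicate block. That block gave equal replicate numbers of both genotypes a shared effect, which no label calls for. A block within each genotype was not tested for this term. DESeq2 called 179, 34 with a higher and 145 with a lower contrast in the mutant, and leaving out one library gave 0 to 50, 0 to 9 higher and 0 to 48 lower. The cause of these shifts was not tested. Of 596 tested named genes 273 were called, and none of these called genes changed direction under these settings. Changes of direction among the named genes that were not called were not counted. The minimum fold of 1.5 ended 142 of 273 calls, and leaving out 1 library ended 17 (source leaf 1) to 68 (sink leaf 2 or sink leaf 3). Genes with a few counts per library are limited by depth, and intervals cover counting error only.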
